A study of Mus musculus with 6 samples.

Results

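The genes described are Bhlhe40, its paralog Bhlhe41 and 8 genes of the circadian clock, namely Per1, Per2, Per3, Cry1, Cry2, Nr1d1, Nr1d2 and Dbp. The 10 genes were found by symbol among 56691 gene rows. Bhlhe40 was chosen by its place among the genes of smallest p for thiothixene against DMSO, where it ranked 5th of 14856 tested genes. The other 9 were chosen by their known role in the clock, with results of the same comparison already known. Every value below comes from that comparison, so the fold changes are descriptions and carry no independent support. Of the 10 genes, 9 passed the expression filter, and Per3 did not.

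RNA was sequenced from mouse bone marrow-derived macrophages, phagocytes grown in culture from marrow precursors. In the thiothixene group the cells were given 2 µM of this antipsychotic dopamine receptor blocker on day 6 and lysed after 24 h. The DMSO group received the solvent for the same time. Marrow came from 3 mice, named a, b and c, and cells of each mouse entered both groups, with n = 3 libraries in either. Strain, age, sex and the clock time of lysis are not given in the labels, and a single time point cannot show a rhythm.

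The thiothixene libraries held 18548095 to 20264090 gene counts and the DMSO libraries 10472349 to 22297520, the lowest being the DMSO library of mouse b. Levels are CPM, gene counts scaled to library size with the trimmed mean of M-values (TMM). Of 6 macrophage markers 5 were detected and summed to 8598 to 10136 CPM with thiothixene and 8640 to 16672 CPM with DMSO. Itgam, the CD11b integrin chain, had 1 count in all 6 libraries, and the span of Gm49368 on the same strand overlaps it. Neutrophil markers, of which 8 were listed, summed to 333.4 to 391.7 CPM with thiothixene and 359.2 to 842.8 CPM with DMSO, the highest again in mouse b. Stromal marker sums were 26.6, 64.3 and 171.0 CPM with thiothixene and 54.7, 93.6 and 88.2 CPM with DMSO in mice a, b and c. Marker sums for B and T cells reached 0.447 CPM at most. In bulk RNA fewer cells of a type and less RNA per cell cannot be told apart. The libraries with DMSO from mice b and c stood apart from each other. Their log2 CPM correlated at 0.825 across genes, which are not independent replicates, while the same mice's thiothixene libraries correlated at 0.981. Over all tested genes the median SD of log2 CPM was 0.296 among thiothixene libraries and 0.657 among DMSO libraries.

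In the clock of mammalian cells the activators CLOCK and BMAL1 bind E-box sequences and drive their own repressors. PER and CRY proteins form a complex that blocks CLOCK and BMAL1, and the nuclear receptors REV-ERB alpha and beta, encoded by Nr1d1 and Nr1d2, repress the Bmal1 gene. DBP is an output factor that activates genes through D-box sequences. BHLHE40 and BHLHE41 (also DEC1 and DEC2) are basic helix-loop-helix repressors that bind the same E-boxes. They are also known as regulators outside the clock, and in mouse macrophages and T cells BHLHE40 represses the Il10 gene.

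The E-box is where these roles meet, so the stretch that holds the palindromic form is shown for each gene that has it, with the variant form of Nr1d1 beside them. Every motif was searched on both strands. RefSeq promoters of build GRCm38.p6, from 250 bases before to 50 after each start, were matched for 8 of the 10 genes, with 9 promoters in all. Bhlhe40 and Per2 were not among them and were not searched. The palindrome CACGTG was present in promoters of Bhlhe41, Per1 and Cry1, and in 7.15% of 32851 promoters of the same length. The variant CACGTT, which differs in its last base, was present for Cry1, Cry2 and Nr1d1 and in 4.68% of promoters. Capitals mark the match in each line, read on the strand of the gene.
Bhlhe41, minus strand, chr6:145865556-145865585, 153 bases before the start: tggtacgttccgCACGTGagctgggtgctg
Per1, plus strand, chr11:69098771-69098800, 166 bases before the start: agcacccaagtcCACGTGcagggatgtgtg
Cry1, minus strand, chr10:85185097-85185126, 60 bases before the start: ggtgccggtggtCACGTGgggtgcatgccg
Nr1d1, minus strand, chr11:98775388-98775417, 28 bases before the start: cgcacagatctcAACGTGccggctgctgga
The D-box TTANGNAA was found for Per1 and Per3 and in 11.5% of promoters. The ROR and REV-ERB element TNGGTCA was found for Cry2 and Per3 and in 11.0% of promoters. The cAMP response element TGACGTCA was in 0 of the 9 promoters and in 1.79% of all. A match is a run of letters in this window and not a measured binding site.

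Bhlhe40 (ENSMUSG00000030103.12, chromosome 6, plus strand, GRCm38 bases 108660629 to 108666925) measured 62.1, 67.9 and 64.8 CPM under thiothixene in mice a, b and c. Under DMSO the same mice gave 28.7, 28.6 and 25.9 CPM. The groups did not overlap, and the libraries within a group lay close together. Bhlhe40 averaged 64.9 ± 2.87 CPM in thiothixene cells and 27.8 ± 1.57 CPM in DMSO cells (SD, n = 3 each). In edgeR its log2 fold change was 1.23 (SE 0.26, 95% interval 0.64 to 1.82), a 2.34-fold higher level. That fit, like those below unless stated, did not pair libraries by mouse. With the mouse as a replicate block the log2 fold change was 1.23 with a larger SE, 0.42. Within mice the log2 difference was 1.11 in mouse a, 1.24 in mouse b and 1.32 in mouse c. The SD of log2 CPM was 0.0637 with thiothixene and 0.0826 with DMSO, the smallest of the 9 tested genes in either group. A small spread helps a gene to a small p, so it goes with the way Bhlhe40 was chosen.

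Bhlhe41 (ENSMUSG00000030256.12, chromosome 6, 145858243 to 145865558, minus strand) encodes the closest relative of BHLHE40. It measured 103.9, 145.2 and 118.0 CPM under thiothixene, against 77.6, 70.1 and 43.9 CPM under DMSO in mice a, b and c. The groups did not overlap, and the DMSO library of mouse c was the lowest. This gave a log2 fold change of 0.94 (SE 0.32, 95% interval 0.21 to 1.66), a 1.92-fold higher level. Within mice the differences were 0.42, 1.05 and 1.42 on the log2 scale in mice a, b and c. Without the DMSO library of mouse c the log2 fold change was 0.73, and with the mouse as a replicate block 0.97 (SE 0.42). Gm43909, an annotated transcript on the opposite strand within the Bhlhe41 span, was at 40.4 ± 7.80 CPM in thiothixene cells and 17.4 ± 9.33 CPM in DMSO cells. The antisense transcript 0610040F04Rik overlaps the first 306 bases of Bhlhe40 and was at 7.79 ± 0.192 CPM in thiothixene cells and 3.72 ± 1.67 CPM in DMSO cells. Whether the counts were made by strand is not stated, so reads of a gene and its antisense partner cannot be told apart.

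**Figure D1:**
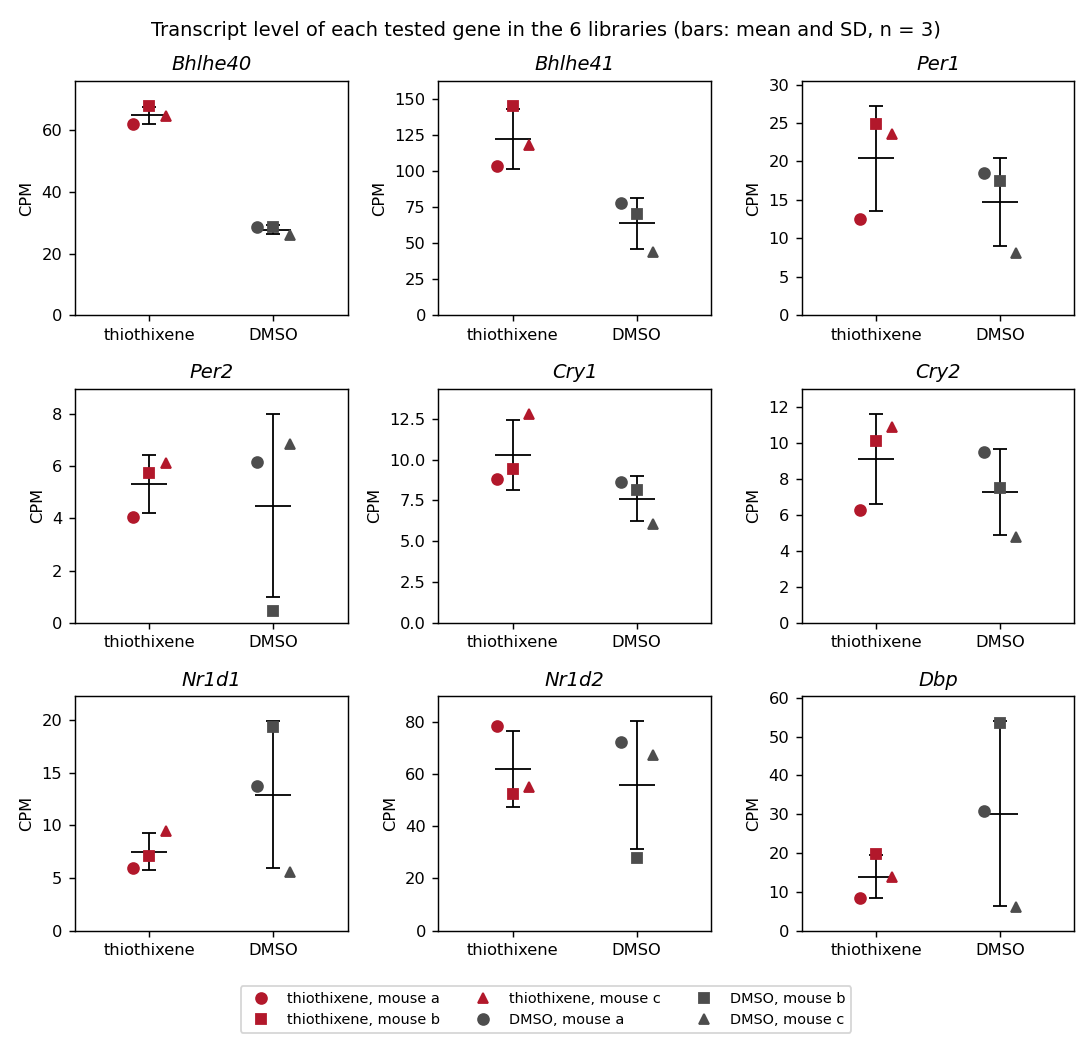
Level in CPM (vertical axes, each from 0) of the 9 tested genes in the thiothixene libraries (left) and DMSO libraries (right), with the mouse as symbol and bars for mean and SD. Bhlhe40 lies between 62.1 and 67.9 CPM with thiothixene and between 25.9 and 28.7 CPM with DMSO, while Dbp and Nr1d1 with DMSO spread over most of their panels.

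The period genes encode the PER proteins, the limiting parts of the repressor complex. Per1 (chromosome 11, 69095217 to 69109960, plus strand) measured 12.5, 24.9 and 23.6 CPM under thiothixene, against 18.5, 17.5 and 8.15 CPM under DMSO in mice a, b and c. The groups overlapped, and the thiothixene library was lower in mouse a and higher in mice b and c. On average Per1 was 0.47 (log2, SE 0.43) higher, and the 95% interval ran from -0.53 to 1.46. The value was 0.18 without mouse c under DMSO, 0.30 without mouse b under thiothixene and 0.73 without mouse a under thiothixene.

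Per2 (chromosome 1, 91415982 to 91459324, minus strand) measured 4.04, 5.74 and 6.12 CPM under thiothixene, against 6.16, 0.447 and 6.83 CPM under DMSO. The low value rests on 4 counts, against 85 to 160 in the other libraries, and belongs to mouse b under DMSO. The log2 fold change was 0.22 (SE 0.77). It was -0.29 without that library and 0.66 with the mouse as a replicate block. The direction of the Per2 difference thus turned with 1 library. Per3 (chromosome 4, 151003652 to 151044665, minus strand) had 0 counts in all 6 libraries, where 3 counts would be 0.128 to 0.335 CPM. Its neighbour Vamp3, a vesicle fusion protein used by cells of most kinds, also had 0 counts in all 6. The span of Camta1, on the same strand, covers Per3, so a Per3 of 0 is given as listed and not read as absence.

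The cryptochrome genes encode the PER partners that carry most of the repression. Cry1 (chromosome 10, 85131700 to 85185064, minus strand) measured 8.79, 9.40 and 12.8 CPM under thiothixene, against 8.62, 8.15 and 6.06 CPM under DMSO in mice a, b and c. The groups did not overlap, but mouse a differed by only 0.03 on the log2 scale. The fitted log2 difference was 0.44 (SE 0.36, 95% interval -0.39 to 1.27), and 0.27 without mouse c under thiothixene. Cry2 (chromosome 2, 92403646 to 92434043, minus strand) measured 6.27, 10.1 and 10.9 CPM under thiothixene, against 9.51, 7.48 and 4.78 CPM under DMSO. Its groups overlapped, with a log2 fold change of 0.33 (SE 0.42). Leaving out mouse c gave 0.19 when its thiothixene library was dropped and 0.10 when its DMSO library was, and leaving out mouse a gave 0.54 and 0.59 in that order. As with Per1, the thiothixene library was the lower in mouse a and the higher in mice b and c. The opposite-strand D930015M05Rik lies within the Cry2 span and had 2.28, 4.83 and 5.62 CPM with thiothixene and 5.98, 2.01 and 3.41 CPM with DMSO.

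Nr1d1 (chromosome 11, 98767932 to 98775333, minus strand), which encodes REV-ERB alpha, measured 5.98, 7.09 and 9.42 CPM under thiothixene, against 13.7, 19.4 and 5.55 CPM under DMSO, in mice a, b and c. The thiothixene library was lower in mice a and b and higher in mouse c, and the groups overlapped through the DMSO library of mouse c. Over the 3 mice the log2 fold change was -0.78 (SE 0.49, 95% interval -1.91 to 0.36), and leaving out mouse b under DMSO gave -0.36. Nr1d2 (chromosome 14, 18204054 to 18239127, minus strand), which encodes REV-ERB beta, measured 78.7, 52.3 and 55.3 CPM under thiothixene, against 72.5, 27.7 and 67.3 CPM under DMSO. Its log2 fold change was 0.15 (SE 0.40), and -0.17 if mouse b under DMSO was left out. The test of Nr1d1 against Nr1d2 was not run, so their opposite signs are a description.

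Dbp (chromosome 7, 45705088 to 45710203, plus strand) measured 8.50, 19.6 and 13.7 CPM under thiothixene, against 30.8, 53.5 and 6.02 CPM under DMSO. Its SD of log2 CPM among DMSO libraries was 1.63, second only to that of Per2, 2.07. Fitted over all libraries, its log2 fold change was -1.11 (SE 0.69, 95% interval -2.70 to 0.48), against -0.40 without the DMSO library of mouse b and -1.59 without that of mouse c. Within mice the log2 difference was -1.84 in mouse a, -1.44 in mouse b and 1.18 in mouse c, the same pattern as for Nr1d1 (-1.18, -1.44 and 0.75). These are values with TMM alone, and in mouse c both signs turned with the offsets for GC content and length described below. Both genes have an opposite-strand neighbour whose DMSO libraries stood in the same order. Sphk2, which overlaps Dbp by 737 bases, measured 45.1, 90.2 and 88.3 CPM under thiothixene, against 86.6, 142.3 and 25.3 CPM under DMSO. Thra, which overlaps Nr1d1 by 1075 bases, had 8.17, 16.1 and 19.6 CPM with thiothixene and 20.9, 25.9 and 9.90 CPM with DMSO. Neutrophil marker sums were 430.7, 842.8 and 359.2 CPM in the DMSO libraries of mice a, b and c, in the same order as Dbp and Nr1d1. Macrophage marker sums, at 11887, 16672 and 8640 CPM, and the summed CREB and immediate early genes, at 139.6, 298.3 and 97.9 CPM, followed the same order. Their part in the result was not tested.

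No gene passed an adjusted p of 0.05 in edgeR's quasi-likelihood test, 0% of 14856 genes, and so 0 of these 9. Unadjusted, 256 of the 14856 genes had a p under 0.05, a smaller share than the 0.05 expected with no difference at all. DESeq2 called 8 genes, 0.0539% of those with an adjusted p, and limma-voom with library quality weights called 25, 0.168%. Both had Bhlhe40 among them, at an adjusted p of 0.0174 in DESeq2 and 0.0277 in limma-voom, and neither called another of the 9. In limma-voom the quality weights of the DMSO libraries were 2.283 in mouse a, 0.2092 in mouse b and 0.2281 in mouse c. Those of the thiothixene libraries were 0.5369, 6.227 and 2.746. The DMSO side of the limma-voom call thus rests mostly on mouse a. Over the alternatives tried the adjusted p of Bhlhe40 ran from 0.0174 to 1. All 3 thiothixene libraries were above all 3 DMSO libraries for Bhlhe40, Bhlhe41 and Cry1, 3 of 9 genes, against 3.88% of all tested genes. They were below for 0 of 9, against 2.77%. Since Bhlhe40 was picked on this comparison and the rest with it in view, nothing is read from these shares.

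**Figure D2:**
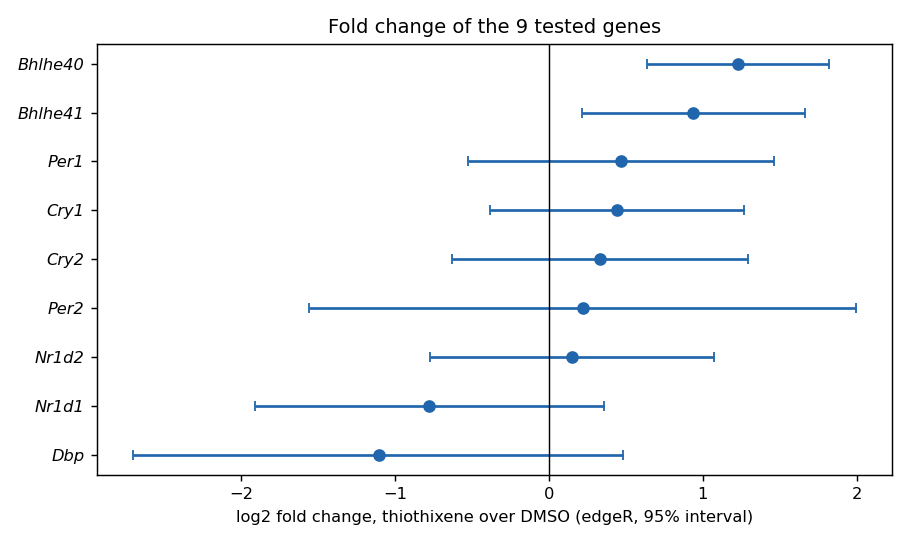
Log2 fold change of the 9 tested genes, thiothixene over DMSO, from edgeR (points) with 95% intervals (bars). The intervals of Bhlhe40 (0.64 to 1.82) and Bhlhe41 (0.21 to 1.66) lie above 0, and those of the 7 other genes include 0. All are from the fit with TMM alone and no mouse block. Bhlhe41 was at 0.68 (SE 0.37) with offsets for GC content and length, and at 0.97 (SE 0.42) with the block.

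On whether Bhlhe40 moved with the clock, 6 of the 8 other tested genes had a log2 fold change above 0 and 2 below. Their median was 0.28, against -0.04 over all tested genes, so Bhlhe40 lay 0.95 above the median of the others. That median was 0.09 without mouse b under DMSO, 0.53 without mouse a under DMSO, 0.47 without mouse a under thiothixene and 0.11 in limma-voom with quality weights. As a value per library, the log2 CPM of Bhlhe40 minus the median of the others, each gene centred on its mean, was 0.71, 0.39 and 0.15 with thiothixene and -0.88, -0.48 and 0.00 with DMSO in mice a, b and c. The groups did not overlap on this measure either. The direction of that gap is fixed in part by the choice of Bhlhe40. Across the 6 libraries, which share mice, Pearson's r of log2 CPM with Bhlhe40 was 0.903 for Bhlhe41, 0.729 for Cry1, 0.526 for Per1, 0.485 for Cry2, 0.313 for Per2 and 0.202 for Nr1d2. It was -0.245 for Dbp and -0.414 for Nr1d1. Dbp and Nr1d1 followed each other, with r = 0.933. These are descriptions over 6 points and include the difference between treatments. They use TMM alone and were not computed again with the offsets for GC content and length described below. Those offsets changed the library values of Bhlhe41, Nr1d1 and Dbp.

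The libraries differed in how far their levels went with transcript GC content and length, which were fitted together and not told apart. A fit on transcript GC content and length took up 4.37% of the variance of deviations from the gene means in the DMSO library of mouse a, 26.4% in that of mouse b and 32.5% in that of mouse c. In the thiothixene libraries it took up 10.2% to 22%, most in mouse a. Dbp has 61.6% GC, Per1 59.4% and Nr1d1 56.8%, against a median of 49.4% over tested genes, which is also the value of Bhlhe40. Per-library offsets for GC and length were added as an alternative once the data had been seen. With them the range of log2 levels over the DMSO libraries was 0.93 for Dbp, where it was 3.13 with TMM alone. It became 0.26 for Nr1d1, where it was 1.79, and 0.19 for Per1, where it was 1.18. The offsets widened the range of Bhlhe41 to 1.58, where it was 0.82, and that of Per2 to 3.94, where it was 3.65.

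The offsets moved Bhlhe40 little and changed which other genes separated the groups. Bhlhe40 deviated from its mean by 0.55, 0.66 and 0.59 with thiothixene and by -0.59, -0.59 and -0.62 with DMSO (log2, mice a, b and c), with a log2 fold change of 1.20 (SE 0.16) and an adjusted p of 0.277 in edgeR. Bhlhe41 no longer separated the groups, at 0.09, 0.69 and 0.40 with thiothixene and -0.25, 0.33 and -1.25 with DMSO, and its log2 fold change was 0.68 (SE 0.37). Nr1d1 now lay lower in all 3 thiothixene libraries, at -0.19, -0.57 and -0.24 with thiothixene and 0.43, 0.41 and 0.17 with DMSO, with a log2 fold change of -0.67 (SE 0.26). Dbp was at -0.32, -0.14 and -0.77 with thiothixene and 0.62, 0.77 and -0.16 with DMSO, with a log2 fold change of -0.86 (SE 0.31). The groups of Dbp overlapped only through mouse c with DMSO and mouse b with thiothixene. Within each mouse Nr1d1 and Dbp were now lower with thiothixene, mouse c included, where both were higher with TMM alone. Per1, at 0.28 (SE 0.21), and Cry1, at 0.42 (SE 0.27), were above in all 3 thiothixene libraries. In all 3 of 9 genes were above, against 5.08% of all genes with these offsets, and 1 of 9 below, against 5.79%. None of the 9 was called, and edgeR's adjusted p was 0.981 for both Nr1d1 and Dbp.

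**Figure D3:**
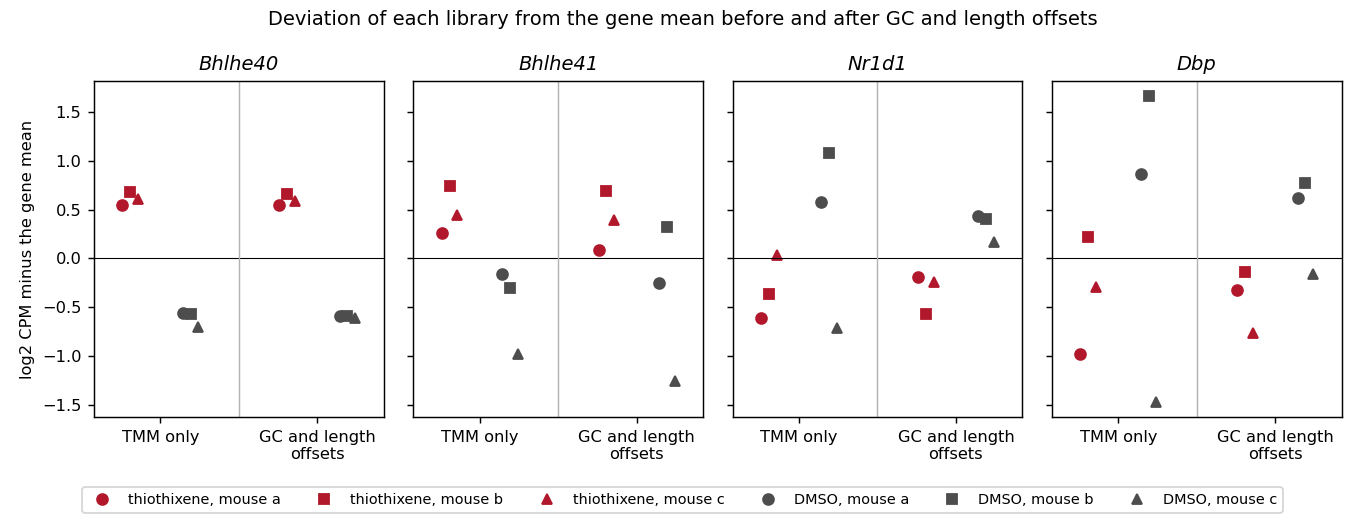
Deviation of each library from the gene mean (log2 CPM, vertical axis) for Bhlhe40, Bhlhe41, Nr1d1 and Dbp, with thiothixene left of DMSO, before (TMM only) and after offsets for GC content and length. The DMSO libraries of Dbp span 3.13 before and 0.93 after, and those of Bhlhe40 0.15 before and 0.02 after.

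Levels between genes were compared per kilobase of exon. With thiothixene the order was Bhlhe41 at 18.2 ± 3.13 CPM per kilobase, Bhlhe40 at 13.8 ± 0.61, Nr1d2 at 11.5 ± 2.67, Dbp at 4.66 ± 1.85, Per1 at 3.62 ± 1.21, Cry1 at 3.09 ± 0.643, Nr1d1 at 2.44 ± 0.57, Cry2 at 1.44 ± 0.396 and Per2 at 0.905 ± 0.189 (SD, n = 3). The neighbours Bhlhe41 and Bhlhe40, Nr1d2 and Dbp, and Nr1d1 and Cry2 lay further apart than their SDs, and the other neighbours did not. With DMSO the order was Nr1d2 at 10.3 ± 4.53 CPM per kilobase, Dbp at 10.1 ± 7.94, Bhlhe41 at 9.51 ± 2.64, Bhlhe40 at 5.90 ± 0.333, Nr1d1 at 4.19 ± 2.27, Per1 at 2.62 ± 1.02, Cry1 at 2.28 ± 0.408, Cry2 at 1.15 ± 0.376 and Per2 at 0.765 ± 0.599. There only Bhlhe41 and Bhlhe40, and Cry1 and Cry2, lay further apart than their SDs.

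The remaining clock genes were read from lists, of which 0 members passed the adjusted p of 0.05 in edgeR in either direction. Of 7 clock activators 5 were tested, 4 above 0 and 1 below, with a median of 0.23. Clock measured 101.1, 69.4 and 73.3 CPM under thiothixene, against 65.5, 21.4 and 120.3 CPM under DMSO, so the DMSO libraries enclosed the thiothixene ones. Rora, which encodes the activator that competes with REV-ERB proteins, measured 16.8 ± 3.16 CPM under thiothixene, against 11.4 ± 6.27 CPM under DMSO. Bmal1, named here after its values were seen because REV-ERB proteins repress it, measured 6.27, 8.27 and 8.04 CPM under thiothixene, against 10.2, 8.15 and 11.9 CPM under DMSO. Its log2 fold change was -0.43 (SE 0.35) and its groups overlapped through mouse b. Npas2, the relative of CLOCK, also named afterwards, was above in all 3 thiothixene libraries, at 3.68 ± 1.75 CPM with thiothixene and 1.97 ± 0.424 CPM with DMSO.

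Of 7 other D-box factors and output genes 6 were tested, 2 above 0 and 4 below, with a median of -0.11. Tef, the D-box activator related to DBP, averaged 69.0 ± 2.97 CPM with thiothixene and 66.3 ± 15.7 CPM with DMSO. Wee1, a cell cycle kinase gene driven by the clock in mouse liver, was at 62.1 ± 3.75 CPM in thiothixene cells and 50.4 ± 19.7 CPM in DMSO cells. All 9 clock kinase and ubiquitin ligase genes were tested, 7 above 0 and 2 below, with a median of 0.16. Their most abundant members were Gsk3b at 0.14 (SE 0.42) and Usp7 at 0.04 (SE 0.36) on the log2 fold change scale. The differences were smaller than their errors for each of these 4 genes.

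Hypoxia-responsive genes were listed because hypoxia is known to induce Bhlhe40. Of 10 genes 9 were tested, 8 above 0 and 1 below, with a median of 0.61 against -0.04 over all genes. Of the 9, 4 lay above in all 3 thiothixene libraries, against 3.88% of all tested genes. All of these 4 but Pfkfb3 are named after their values were seen. The list was chosen with results of the same comparison known, so nothing is read from these shares. A part of hypoxia in the result was not tested. Pfkfb3, a glycolytic regulator, measured 95.7, 98.0 and 115.7 CPM under thiothixene, against 48.7, 29.8 and 76.6 CPM under DMSO. Vegfa, the vascular growth factor gene, measured 37.5 ± 9.25 CPM under thiothixene, against 21.8 ± 3.28 CPM under DMSO. Ndrg1 measured 37.9 ± 1.83 CPM under thiothixene, against 23.5 ± 4.44 CPM under DMSO. The glucose transporter gene Slc2a1 had 54.2, 56.9 and 74.4 CPM with thiothixene and 27.2, 50.1 and 37.9 CPM with DMSO. The abundant Ero1a, an endoplasmic reticulum oxidase gene, overlapped between groups with a log2 fold change of 0.30 (SE 0.38). Overlap was also found for the other tested genes of the list, with log2 fold changes of -0.11 (SE 0.33) for Bnip3, 0.04 (SE 0.32) for Pdk1, 0.29 (SE 0.57) for Ankrd37 and 0.61 (SE 0.53) for Egln3.

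Il10 and Maf were read as genes that BHLHE40 is known to repress in mouse immune cells. Maf, a macrophage transcription factor gene, measured 490.5, 472.8 and 516.9 CPM under thiothixene, against 722.4, 446.9 and 845.0 CPM under DMSO. Il10 was low, at 1.35 ± 0.853 CPM with thiothixene and 2.34 ± 2.09 CPM with DMSO. The groups overlapped for both genes.

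Glucocorticoid and CREB signals are known to induce Per1 directly. Of 8 glucocorticoid-responsive genes 7 were above 0 and 1 below, with a median of 0.30. Tsc22d3 differed by 0.02 (log2, SE 0.28) and Sgk1 by 0.30 (SE 0.28). Fkbp5, the glucocorticoid receptor co-chaperone gene, named after its values were seen, was the one below, at 35.0 ± 3.87 CPM with thiothixene and 47.6 ± 4.50 CPM with DMSO, without overlap. Of 8 CREB and serum immediate early genes 3 were above 0 and 5 below, with a median of -0.11. Junb measured 15.5, 61.5 and 71.0 CPM under thiothixene, against 53.7, 100.1 and 14.5 CPM under DMSO, and Fos had a log2 fold change of -0.25 (SE 0.49). With TMM alone, the lowest libraries of each group for Junb were those of mouse a under thiothixene and mouse c under DMSO. The same was true of all tested genes of the set, Bhlhe40 included, except Per2 and Nr1d2. With the offsets for GC content and length it held, within the set, for Bhlhe40 and Bhlhe41 only. The lowest DMSO library was then that of mouse b for Per1, Cry1 and Cry2. The lowest thiothixene library was that of mouse b for Nr1d1 and of mouse c for Dbp.

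**Figure D4:**
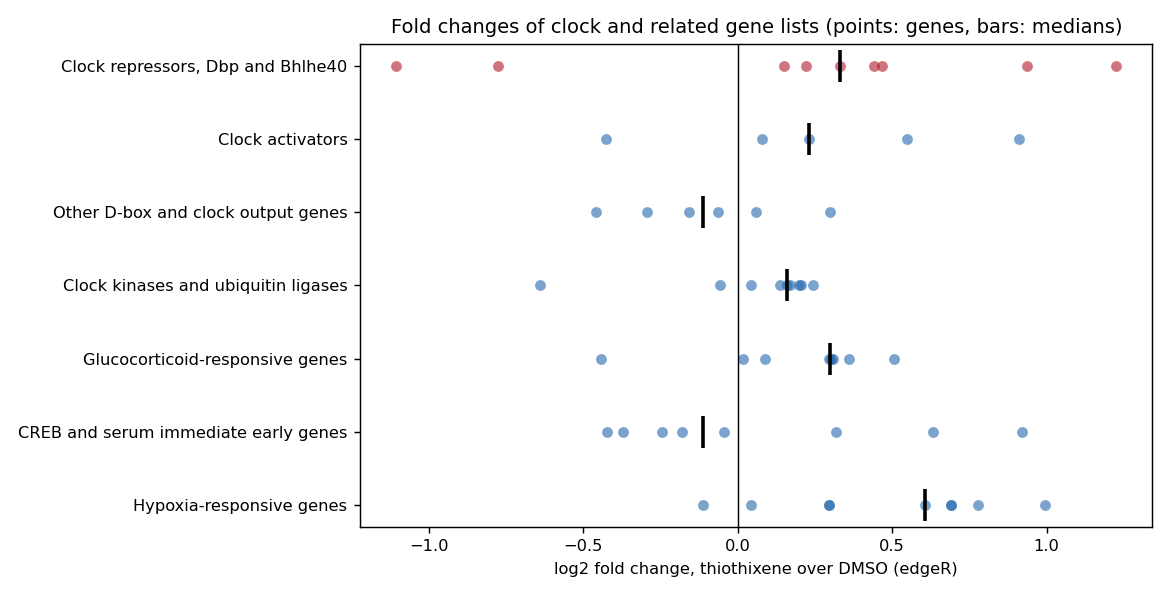
Log2 fold change in edgeR, thiothixene over DMSO, of every tested gene (points) in each list, with the list median (bar). The clock repressors with Dbp and Bhlhe40 spread from -1.11 to 1.23, and the hypoxia list has the highest median of the 6 other lists shown, 0.61.

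The genes whose levels followed Bhlhe40 most closely over the 6 libraries were Gpnmb (r = 0.994), Rab7b (r = 0.981) and Rps6ka2 (r = 0.979), among 9529 genes with a mean of at least 10 CPM. Bhlhe40 was chosen on the difference between treatments and varied little within groups. Its r values therefore largely restate that difference. Gpnmb, a lysosomal glycoprotein gene, measured 10695, 11790 and 10622 CPM under thiothixene, against 5313, 5954 and 5128 CPM under DMSO. Rab7b, which encodes an endosomal GTPase, had 299.8, 317.1 and 296.6 CPM with thiothixene and 213.8, 235.0 and 217.4 CPM with DMSO. The genes closest to Dbp were Usp20 (r = 0.997), Tcf19 (r = 0.994) and Hist1h1c (r = 0.993). These r values use TMM alone and were not computed again with the offsets for GC content and length. With those offsets the DMSO range of Dbp itself was 0.93, where it was 3.13, so they are not read as shared regulation. Tcf19 measured 22.2, 31.4 and 27.3 CPM under thiothixene, against 44.5, 63.3 and 18.2 CPM under DMSO, with the DMSO library of mouse b highest and that of mouse c lowest, as for Dbp. None of these 6 genes is one of the 10.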

How the data were processed

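Whole-number counts per gene, not normalized, were deposited by the authors, a table per library. Per the submitters' processing notes, the tools included STAR 2.7.11b, Trim Galore 0.6.10, FastQC 0.11.8 and DESeq2 1.44, with mm10 as the build and no roles given. How reads were counted, by which program, strand setting and gene models, is not given in the sources used here. The 5 rows that name no gene held 51.2% to 53.4% of all counts and were left out. Symbols, spans and exon lengths came from GENCODE M21 (GRCm38), where 52073 identifiers matched without version and 4618 did not.

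Genes were tested in R 4.3.3 by the robust quasi-likelihood method of edgeR 4.0.16, with TMM, its own expression filter, treatment as the only term, and Benjamini-Hochberg adjustment at 0.05 over all 14856 genes. SE is the absolute log2 fold change over the square root of F. Log2 CPM used a prior count of 2. The procedure was tested on simulated counts. Alternatives were the mouse as a replicate block, RLE, no filter, CPM of at least 1 in 3 libraries as filter, DESeq2 1.42.0, limma 3.58.1 voom with quality weights, leaving out each library, and offsets for GC and length (splines with 5 degrees of freedom). Limits from 0 counts rest on 3 counts and cover counting error only.

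The replicates are separate mice, and the letters pair libraries of the same mouse. Deviations from the group means correlated at -0.131 in mouse a, 0.318 in mouse b and -0.301 in mouse c. Pairs of different mice ran from -0.411 to 0.486, the highest being thiothixene in mouse a with DMSO in mouse c. Libraries of the same mouse thus did not stand out by this measure. Members, lists and named genes were chosen with earlier results of these data known. Named from each list were its called genes, or failing any the 2 most abundant, and the 3 genes most like Bhlhe40 and Dbp. The result of 1 further listed gene is not reported here, and counts over its list are left out.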

Additional observations from a re-analysis of the deposited data

How the results depend on the processing

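The count of 0 called genes held in edgeR under RLE size factors, the replicate block, the stricter filter and offsets for GC and length, alone or with the block, and leaving out single libraries gave 0 to 0 calls. It was 1 without a low-count filter, 8 in DESeq2 and 25 in limma-voom with library quality weights, and the cause was not tested. The median log2 fold change of the 8 other tested genes ran from 0.09 to 0.53 and the gap of Bhlhe40 above it from 0.73 to 1.16, both ends when single libraries were left out. Log2 fold changes of Bhlhe40 stayed between 1.18 and 1.26 over all alternatives. With single libraries left out, Per2 ran from -0.29 to 0.625 and Nr1d2 from -0.17 to 0.393. The main fit called 0 genes, so no call could be lost, and none could be gained in an alternative that also called 0. There only the direction could change, and all alternatives reuse the same libraries. Of 126 comparisons of single genes across alternatives 119 kept direction and call, 2 gained a call and 5 changed sign. The 2 gained were Bhlhe40, at 1.21 in DESeq2 and 1.23 in limma-voom. Those that changed sign were Nr1d2, at -0.32 in limma-voom, -0.05 without the thiothixene library of mouse a and -0.17 without the DMSO library of mouse b, and Per2, at -0.29 without mouse b under DMSO and -0.047 with GC and length offsets. The replicate block changed no call of these genes, with Bhlhe40 at 1.23, Dbp at -0.77 and Per2 at 0.66. It raised the SE of Bhlhe40 to 0.42, where it was 0.26, and that of Bhlhe41 to 0.42, where it was 0.32. The SE of Dbp fell to 0.61, where it was 0.69. Counts limit Per2 most, with 4 in 1 DMSO library, and Per3 could not be fitted.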

Other observations

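Cipc, which encodes a CLOCK-interacting inhibitor of the CLOCK and BMAL1 pair, ranked 5 in likeness to Bhlhe40 over the 6 libraries (Pearson r = 0.977, a description). It was in none of the lists and was named after its values were seen. Its r, like those of the genes above, uses TMM alone and largely restates the difference between treatments. Cipc measured 153.8, 164.4 and 141.0 CPM under thiothixene and 84.5, 71.3 and 80.2 CPM under DMSO in mice a, b and c, without overlap. All 3 thiothixene libraries were above all 3 DMSO libraries for 3.88% of all tested genes, so nothing is read from this. The log2 fold change of Cipc was 0.96 (SE 0.26, 95% interval 0.37 to 1.55) in edgeR, and it was not called.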
